A study of Oryza sativa with 8 samples.

Results

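Iron uptake and nicotianamine synthesis in rice were followed through 8 loci. NAS1 (LOC_Os03g19427), NAS2 (LOC_Os03g19420) and NAAT1 (LOC_Os02g20360) code for enzymes that make iron-binding ligands. TOM1 (LOC_Os11g04020), YSL15 (LOC_Os02g43410), IRT1 (LOC_Os03g46470) and IRT2 (LOC_Os03g46454) code for transporters, and IRO2 (LOC_Os01g72370) for a transcription factor. They were chosen by these locus identifiers from the 52795 loci on the array. All 8 passed the filter on dim loci, which asks for a signal well above background in both replicates of some group, and 45411 loci did so in all. The arrays were read from seedlings of Nipponbare, a japonica line, and Pokkali, an indica line, both 14 days old, sampled at 0 h and at 8 h of treatment with 250 mM NaCl. Each of these 4 groups held 2 biological replicates, each on its own array. The RNA came from whole seedlings raised in a greenhouse in natural light. How many seedlings made up a replicate is not given in the sources used here. No group was kept for 8 h without salt, so salt and time of day cannot be told apart in any change given here. On the slide, Nipponbare filled row 1 and Pokkali row 2, with 0 h in columns 1 and 2 and 8 h in columns 3 and 4, so array position and group cannot be told apart either.

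Grasses take up iron mainly by chelation. Nicotianamine synthase (NAS) joins molecules of S-adenosylmethionine into nicotianamine, which itself carries metals inside the plant. Nicotianamine aminotransferase (NAAT) opens the way from nicotianamine to deoxymugineic acid, TOM1 releases deoxymugineic acid from the root, and YSL15 brings its ferric complex back in. Rice, a plant of flooded soil, can also take up ferrous iron through IRT1 and IRT2. IRO2 is a basic helix-loop-helix factor that activates many of these genes under iron shortage, and the root transcripts of this set are known as markers of iron deficiency.

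Both nicotianamine synthases, the ligand exporter TOM1, the ferric ligand importer YSL15 and the ferrous transporter IRT1 were lower at 8 h of salt in both lines, while NAAT1, IRO2 and IRT2 did not pass the test in either. In Nipponbare 5 of the 8 loci fell (62.5%), against 12.3% of all 45411 loci tested, and none rose (14.0% of all loci). In Pokkali 5 of 8 fell as well, against 12.0% of all loci, and none rose (15.2% of all loci). The 5 were shared by both lines: NAS1, NAS2, TOM1, YSL15 and IRT1. The median log2 change of the 8 was -2.89 in Nipponbare and -3.07 in Pokkali, or -2.41 and -2.94 with loci that were not above background at 8 h set at their bound, where the medians of all loci were 0.05 and 0.08. The value set for IRT1 in Nipponbare is no true bound, since 0 h replicate 1 was not above background either. TOM1, YSL15 and IRT1 passed the filter through their 0 h arrays alone, so their calls are not independent of that filter. The 8 loci were chosen with earlier results of these data known. Their shares beside those of all loci are thus a description and not a test of the set. In whole seedlings, fewer cells of a type and less transcript per cell cannot be told apart. Calls rest on limma with 2 arrays per group, two-sided, at a threshold of 0.05 after Benjamini-Hochberg adjustment over the whole array, a size at which an exact permutation test of 1 locus cannot go below 0.333.

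**Figure D1:**
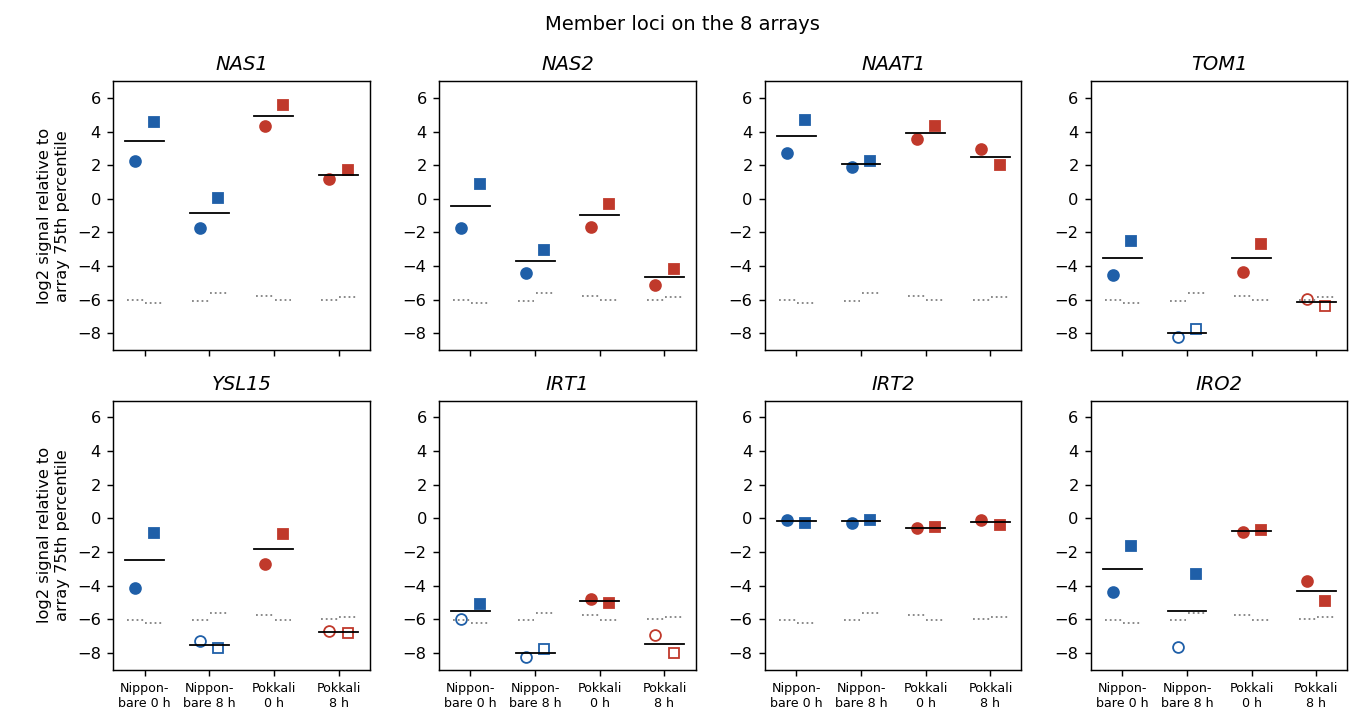
Signal of the 8 loci on each of the 8 arrays, in log2 units relative to the 75th percentile of that array (vertical axis), by line and time (horizontal axis). Circles are replicate 1, squares replicate 2, bars group means, open symbols arrays where the locus was not well above background, and dotted lines the lowest signal well above background on that array. All loci but IRT2 have both 0 h means above both 8 h means, and TOM1, YSL15 and IRT1 have open symbols on all 4 arrays at 8 h.

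NAS1, the first enzyme of the ligand pathway, fell steeply. In Nipponbare it measured 4549 and 20261 intensity units at 0 h (replicates 1 and 2) and 248 and 781 at 8 h. In Pokkali it measured 15685 and 36375 at 0 h and 1632 and 2165 at 8 h. Every 0 h array was thus brighter than every 8 h array, within and across lines. NAS1 fell 18.8-fold in Nipponbare (log2 -4.23, SE 0.91, adjusted p = 0.0189 by limma) and 11.4-fold in Pokkali (log2 -3.52, SE 0.91, adjusted p = 0.0332). The Nipponbare call was lost without 0 h replicate 2 (adjusted p = 0.0712) or 8 h replicate 1 (0.0880) of that line, and with the 4 Nipponbare arrays fitted alone (0.0522). The Pokkali call was lost without 0 h replicate 2 (0.137), 8 h replicate 1 (0.131) or 8 h replicate 2 (0.111) of that line.

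NAS2, a second nicotianamine synthase, fell in the same 2 comparisons. Its Nipponbare signal was 285 and 1604 units at 0 h and 38.3 and 91.7 at 8 h. In Pokkali it was 246 and 620 at 0 h and 20.5 and 37.8 at 8 h. All 8 values were well above background, and the 0 h and 8 h values did not overlap in either line. The fall was 9.82-fold in Nipponbare (log2 -3.30, SE 0.97, adjusted p = 0.0499 by limma) and 12.6-fold in Pokkali (log2 -3.66, SE 0.97, adjusted p = 0.0358). The Nipponbare call lay at the threshold: it was lost without 0 h replicate 2 of that line (adjusted p = 0.176), either 8 h array of that line (0.202 for replicate 1, 0.100 for replicate 2), either Pokkali 0 h array (0.0552 each) or either Pokkali 8 h array (0.0779 each). It was also lost with no filter on dim loci (0.0627) and with the 4 Nipponbare arrays fitted alone (0.0916). The Pokkali call was lost without either Pokkali 0 h array (0.0503 for replicate 1, 0.146 for replicate 2), either Pokkali 8 h array (0.149 and 0.0985) or either Nipponbare 8 h array (0.0512 each). NAS1 and NAS2 lie side by side on chromosome 3, with 0 genes between genes of these names in RefSeq. The probe sequences are not given in the files used here and whether each probe also binds the other transcript was not tested, so how the falls divide between NAS1 and NAS2 is uncertain.

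NAAT1, the aminotransferase that follows nicotianamine synthase, was lower at 8 h on every array but did not pass the test. It measured 6277 and 22407 units in Nipponbare at 0 h and 3025 and 3607 at 8 h. In Pokkali it measured 9198 and 15391 at 0 h and 5587 and 2698 at 8 h. The groups did not overlap in either line, but the 0 h replicates of Nipponbare lay 3.93-fold apart. The log2 change was -1.63 in Nipponbare (SE 0.67, adjusted p = 0.125 by limma) and -1.46 in Pokkali (SE 0.67, adjusted p = 0.156). Without 0 h replicate 1 of Nipponbare it passed as lower in that line (log2 -2.62, adjusted p = 0.0221).

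TOM1, which exports deoxymugineic acid, was above background at 0 h and on no array at 8 h. In Nipponbare it measured 41.6 and 154 units at 0 h and 2.74 and 3.54 at 8 h. In Pokkali it measured 38.8 and 118 at 0 h and 11.8 and 8.30 at 8 h. The lowest signal that counted as well above background ran from 11.4 to 15.3 units over the 8 arrays, so the 8 h values give a limit and no level. Such a locus is given as a bound, with the values of each 8 h array raised to that lowest signal where they lay below it. The bound is a difference of group means without an interval and was not itself tested. The adjusted p belongs to the limma fit on the measured values, those below background included. TOM1 was at least 5.07-fold lower at 8 h in Nipponbare (adjusted p = 0.00928 by limma) and at least 5.16-fold lower in Pokkali (adjusted p = 0.0483). The Nipponbare call was lost without 8 h replicate 1 (adjusted p = 0.0505) or 8 h replicate 2 (0.0501) of that line. The Pokkali call was lost without Pokkali 0 h replicate 2 (0.188), either Pokkali 8 h array (0.125 and 0.193) or either Nipponbare 8 h array (0.0781 each), and with no filter on dim loci (0.0606).

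YSL15, which imports the ferric complex of deoxymugineic acid, had the largest of the bounds in both lines. Its signal in Nipponbare was 53.5 and 478 units at 0 h and 5.18 and 3.54 at 8 h. In Pokkali it was 118 and 394 at 0 h and 7.08 and 5.91 at 8 h. The 0 h arrays were all well above background and the 8 h arrays all were not. YSL15 was at least 10.1-fold lower at 8 h in Nipponbare (adjusted p = 0.0185 by limma) and at least 16.8-fold lower in Pokkali (adjusted p = 0.0194). The call was lost in Nipponbare without 8 h replicate 1 (0.0684) or 8 h replicate 2 (0.0991). It was lost in Pokkali without 0 h replicate 2 (0.0877), 8 h replicate 1 (0.0767) or 8 h replicate 2 (0.0964).

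IRT1, the ferrous iron transporter, was close to background even before salt. In Nipponbare it measured 15.1 and 25.3 units at 0 h, of which only replicate 2 was well above background, and 2.68 and 3.46 at 8 h. In Pokkali it measured 28.1 and 22.8 at 0 h, both above background, and 5.92 and 2.59 at 8 h. No 8 h array was above background. IRT1 was called lower at 8 h in Nipponbare (adjusted p = 0.0107 by limma). Since 0 h replicate 1 of that line was not above background either, no least fold is given there. In Pokkali IRT1 was at least 1.97-fold lower (adjusted p = 0.0097 by limma). That was the smallest bound among TOM1, YSL15 and IRT1 in Pokkali. The Nipponbare call was lost without 0 h replicate 2 (0.0516) or 8 h replicate 1 (0.0586) of that line. With normexp background correction the calls of NAS2, TOM1, YSL15 and IRT1 were lost in both lines (adjusted p from 0.0608 to 0.262), and that of NAS1 was kept in both.

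IRT2, the second ferrous transporter of the same region of chromosome 3, was measured at nearly the same signal in all groups. Its Nipponbare signal was 870 and 724 units at 0 h and 679 and 689 at 8 h. In Pokkali it was 523 and 539 at 0 h and 679 and 514 at 8 h, where the 2 ranges overlap in these unscaled units. On the scaled log2 values the Pokkali 8 h arrays both lay above the 0 h arrays. The log2 change was 0.00 in Nipponbare (95% interval -0.40 to 0.40, adjusted p = 0.995 by limma) and 0.30 in Pokkali (-0.09 to 0.70, adjusted p = 0.215). These intervals do not reach the estimated change of NAS1 or NAS2. With no scaling between arrays the log2 values were -0.22 in Nipponbare and 0.15 in Pokkali. RefSeq places 2 genes between genes named IRT1 and IRT2, and binding of each probe to the other transcript was not tested.

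**Figure D2:**
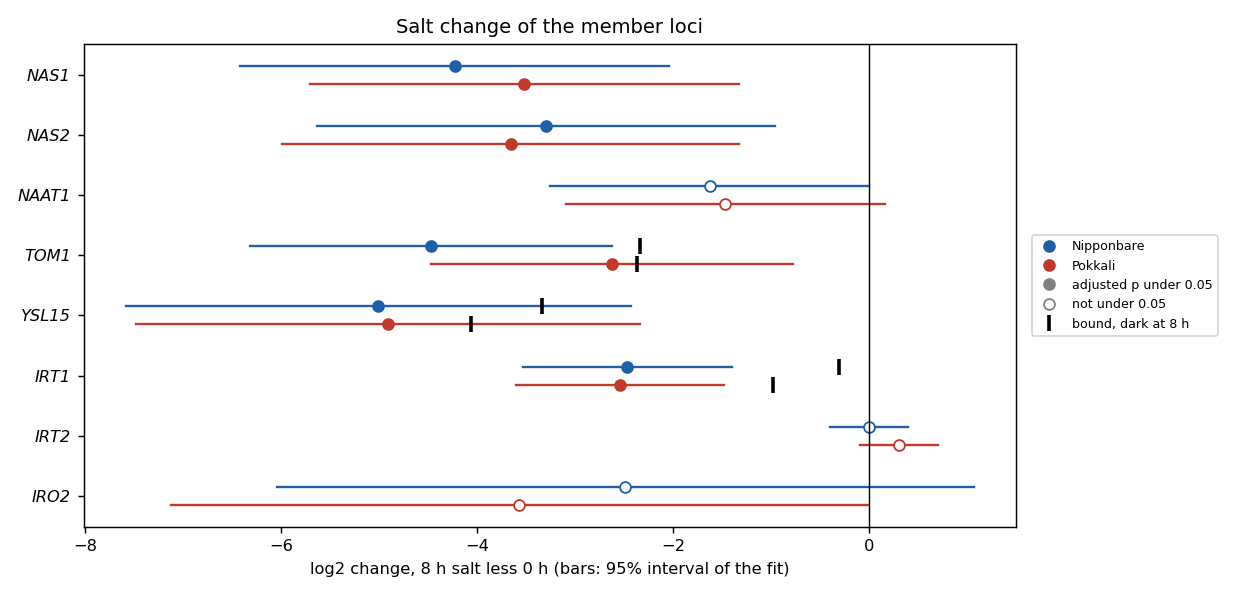
Log2 change from 0 h to 8 h of salt for the 8 loci (horizontal axis) in Nipponbare (blue) and Pokkali (red), with 95% intervals of the fit. Filled points have an adjusted p under 0.05, and black ticks give the bound of a locus that was not above background at 8 h. The tick of IRT1 in Nipponbare is no true bound, since 0 h replicate 1 was not above background either. NAS1, NAS2, TOM1, YSL15 and IRT1 are filled in both lines, IRT2 stands at 0.00 and 0.30, and IRO2 has the widest intervals.

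IRO2, the regulator of the uptake genes, had low values at 8 h but a wide spread between replicates. Its probe was printed 15 times on each array, so the array means rest on 14 or 15 spots. In Nipponbare they were 46.3 and 276 units at 0 h and 4.06 and 74.2 at 8 h. In Pokkali they were 452 and 481 at 0 h and 55.6 and 22.5 at 8 h. The Pokkali groups stood well apart, whereas in Nipponbare 8 h replicate 2 was brighter than 0 h replicate 1, and 8 h replicate 1 was the 1 array below background. Spots of the same array varied by an SD of 0.0610 to 0.481 log2 units. The log2 change was -2.49 in Nipponbare (SE 1.47, adjusted p = 0.259 by limma) and -3.57 in Pokkali (SE 1.47, adjusted p = 0.122). With the 4 Pokkali arrays fitted alone IRO2 passed as lower in Pokkali (adjusted p = 0.0138), as it did without either Nipponbare 8 h array (0.0479 each) and with normexp background correction (0.0342).

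Groups that did not overlap were common on these arrays. In Nipponbare 6 of the 8 loci lay lower on both 8 h arrays than on both 0 h arrays, where 31.6% of all loci did. In Pokkali 7 of 8 did, against 29.6% of all loci. NAS1, NAS2, NAAT1, TOM1, YSL15 and IRT1 did so in both lines and IRO2 in Pokkali.

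The order of the 4 groups was nearly the same from locus to locus. The means of both 0 h groups lay above those of both 8 h groups in 7 of the 8 loci, with IRT2 as the exception. The share of all loci with this order was not computed. The count restates the lower 8 h values given above and is no further result about the set. Among the 7 loci, Pokkali at 0 h was highest for 5 and Nipponbare at 0 h for NAS2 and TOM1. At 8 h TOM1, YSL15 and IRT1 were at background in both lines and have no order there. Of the other 4, Nipponbare at 8 h was lowest for NAS1, NAAT1 and IRO2 and Pokkali at 8 h for NAS2. Groups of the same time are neighbours in this order for those 7 loci, and the tests between them follow.

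Before salt, no difference between Pokkali and Nipponbare was detected in the 8 loci. Whether each probe matches both lines alike was not tested. In any comparison of the lines, probe match and transcript level thus cannot be told apart. By limma 0 of 8 passed, against 16.8% of all loci, and 0 had an unadjusted p under 0.05. IRO2 had the largest estimate, with 46.3 and 276 units in Nipponbare against 452 and 481 in Pokkali. This gave a log2 difference, Pokkali less Nipponbare, of 2.26 (95% interval -1.29 to 5.82, adjusted p = 0.373). NAS1 stood at 1.54 (-0.65 to 3.73, adjusted p = 0.326), NAS2 at -0.57 (-2.91 to 1.77, adjusted p = 0.757) and YSL15 at 0.65 (-1.92 to 3.23, adjusted p = 0.747). These intervals are wide. IRT2 had the narrowest of the 8, at -0.36 (-0.76 to 0.04, adjusted p = 0.209).

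After 8 h of salt again 0 of 8 loci passed between the lines by limma, against 22.0% of all loci, with 1 at an unadjusted p under 0.05. That locus was NAS1, at 248 and 781 units in Nipponbare and 1632 and 2165 in Pokkali. The Pokkali arrays were both brighter, by a log2 difference of 2.25 (95% interval 0.06 to 4.44, adjusted p = 0.132). TOM1, YSL15 and IRT1 were not above background in either line at 8 h and are given no fold between lines. NAS2 stood at -0.93 (-3.27 to 1.40) and IRO2 at 1.18 (-2.37 to 4.74), neither past the test.

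The fall itself was not shown to differ between the lines. The difference of the changes, Pokkali less Nipponbare, passed for 0 of 8 loci by limma, with 0 at an unadjusted p under 0.05, and 0.346% of all loci passed. It was 0.71 for NAS1 (95% interval -2.38 to 3.81), -0.36 for NAS2 (-3.67 to 2.94) and 0.16 for NAAT1 (-2.14 to 2.46). For IRO2 it was -1.08 (-6.11 to 3.94), which leaves room for large differences either way. For IRT2 it was 0.30 (-0.26 to 0.86). TOM1, YSL15 and IRT1 were below background at 8 h, so the size of their fall is known at most as a bound in each line.

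The replicates of a group differed more in these loci than in most. In Nipponbare at 0 h, replicate 2 was higher than replicate 1 for 7 of the 8 loci, by a median of 2.16 log2 units. Of the 8, 6 differed by over 1 log2 unit, against 8.29% of all loci. In Pokkali at 0 h replicate 2 was again higher for 7 of 8, by a median of 1.02, and 4 differed by over 1 log2 unit, against 8.54% of all loci. YSL15 in Nipponbare differed 9.86-fold between the 0 h replicates, IRO2 6.57-fold, NAS2 6.21-fold and NAS1 4.91-fold. The exceptions at 0 h were IRT2 in Nipponbare and IRT1 in Pokkali, where replicate 2 was the lower. Of all loci, 45.0% in Nipponbare and 52.0% in Pokkali were higher in replicate 2 at 0 h. At 8 h replicate 2 was higher for 7 of 8 loci in Nipponbare (49.4% of all loci) and 2 of 8 in Pokkali (54.0%). There 3 of 8 and 2 of 8 differed by over 1 log2 unit, against 3.45% and 3.64% of all loci.

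**Figure D3:**
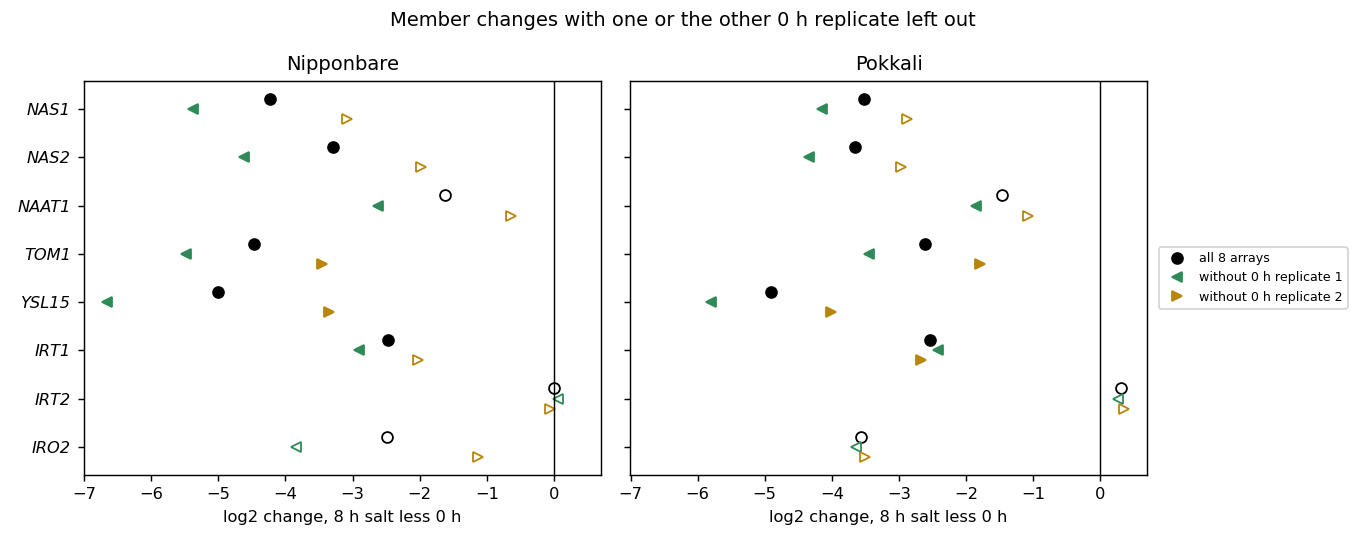
Log2 change from 0 h to 8 h (horizontal axis) of the 8 loci in Nipponbare (left) and Pokkali (right), with all 8 arrays (circles), without 0 h replicate 1 of both lines (green) and without 0 h replicate 2 of both lines (yellow). Filled symbols have an adjusted p under 0.05. In Nipponbare 6 loci are filled without replicate 1 and only TOM1 and YSL15 without replicate 2; in Pokkali 6 and 3 are filled.

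Without 0 h replicate 1 of both lines, 6 loci passed as lower in each line, NAAT1 in addition to the 5 (adjusted p = 0.0185 in Nipponbare and 0.0422 in Pokkali). Without 0 h replicate 2 of both lines, 2 passed in Nipponbare (TOM1 and YSL15) and 3 in Pokkali (TOM1, YSL15 and IRT1). These fits draw their spread from the 8 h pairs alone, which differed by an SD over all loci of 0.44 and 0.45 log2 units, against 0.62 and 0.63 at 0 h. Leaving out 1 array at a time gave 0 to 6 calls in Nipponbare and 1 to 5 in Pokkali. The count of 0 came without Nipponbare 8 h replicate 1, and counts of 2 without Nipponbare 0 h replicate 2 or 8 h replicate 2. The count of 1 in Pokkali came without its 0 h replicate 2, 8 h replicate 1 or 8 h replicate 2. For the 7 loci other than IRT2, all 238 of 238 values over 17 alternatives and both lines were below 0. IRT2 was set apart after its values were seen. Leaving out arrays cannot turn the sign where the 0 h and 8 h groups do not overlap. That was so for each of these changes but IRO2 in Nipponbare. The 238 values also reuse the same 8 arrays, so they are no separate evidence of the direction.

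Other genes of iron handling moved in both directions. They were 33 loci named from general knowledge of rice locus identifiers, of which 32 were measured. DMAS1 (LOC_Os03g13390) had no probe under that identifier on the array. In Nipponbare 4 rose and 2 fell (18.8%, against 26.3% of all loci in either direction). In Pokkali 5 rose and 7 fell (37.5%, against 27.2%). Both lines shared 4 of the rises and 1 of the falls. With no scaling between arrays the split was 2 higher and 7 lower in Nipponbare and 4 and 8 in Pokkali, and with quantile scaling 4 and 4 in Nipponbare, so the balance rests on the scaling.

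FRO2 (LOC_Os04g48930), a ferric reductase, fell in both lines. It measured 217 and 212 units at 0 h and 23.9 and 25.1 at 8 h in Nipponbare, and 664 and 386 at 0 h and 35.2 and 54.2 at 8 h in Pokkali. The groups stood far apart in both lines. FRO2 fell 7.53-fold in Nipponbare (log2 -2.91, SE 0.32, adjusted p = 0.00276 by limma) and 10.4-fold in Pokkali (log2 -3.38, SE 0.32, adjusted p = 0.00209). Both its probes fell alike (-3.08 and -2.74 in Nipponbare, -3.43 and -3.33 in Pokkali), and its calls held under all 17 alternatives in both lines. FRO1 (LOC_Os04g36720), a second reductase, fell 9.45-fold in Nipponbare (adjusted p = 0.0300), a call lost without 0 h replicate 2 (0.133) or either 8 h array (0.135 and 0.0663) of that line. In Pokkali it was at a log2 change of -2.52 and did not pass (adjusted p = 0.0619), but it passed as lower without 0 h replicate 1 of that line (0.0455) and with no scaling between arrays (0.0422).

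**Figure D4:**
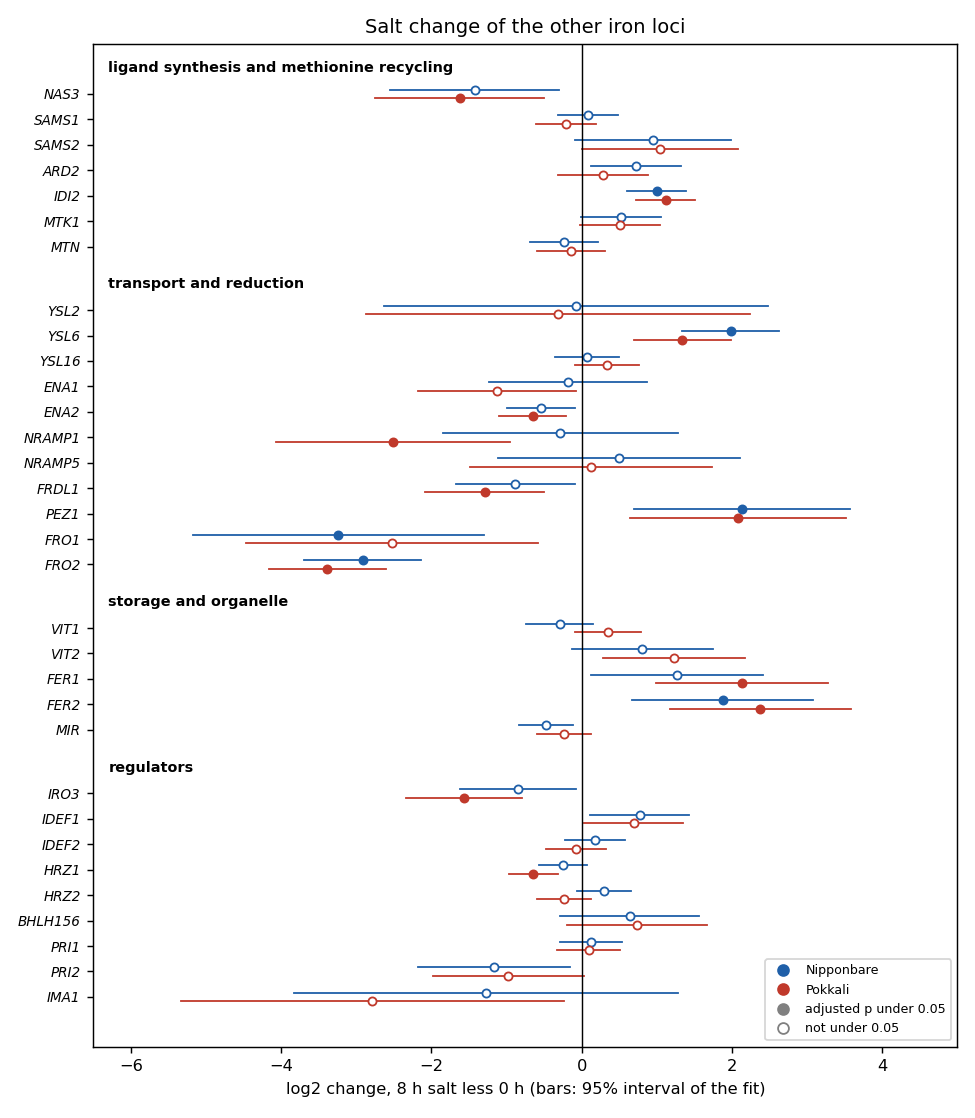
Log2 change from 0 h to 8 h (horizontal axis) of 32 other iron loci, grouped by role, in Nipponbare (blue) and Pokkali (red), with 95% intervals. Filled points have an adjusted p under 0.05. FRO2 is filled below 0 with narrow intervals in both lines, and FER2, PEZ1, YSL6 and IDI2 are filled above 0 in both lines.

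Of the ferritins, FER2 rose in both lines. FER2 (LOC_Os12g01530), a ferritin that stores iron in plastids, rose 3.67-fold in Nipponbare (adjusted p = 0.0376 by limma) and 5.20-fold in Pokkali (adjusted p = 0.0174). FER1 (LOC_Os11g01530), a near-identical ferritin named here after its values were seen, rose 4.37-fold in Pokkali (adjusted p = 0.0208) and was at a log2 change of 1.26 in Nipponbare (adjusted p = 0.0974). Binding of each ferritin probe to the other transcript was not tested. The FER2 call was lost in Nipponbare without any one of its 4 arrays (0.0763 to 0.184) or either Pokkali 8 h array (0.0672 each). Both ferritin calls in Pokkali were lost without either 8 h array of that line (0.0658 and 0.0939 for FER2, 0.0719 and 0.108 for FER1).

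YSL6 (LOC_Os04g32050), a transporter of the same family as YSL15, moved the other way from it. It rose 3.96-fold in Nipponbare (log2 1.99, SE 0.27, adjusted p = 0.00455 by limma) and 2.53-fold in Pokkali (log2 1.34, SE 0.27, adjusted p = 0.0147). The Pokkali call was lost without 0 h replicate 2 (0.0666) or 8 h replicate 2 (0.0882). IDI2 (LOC_Os11g11050), of the methionine recycling that feeds nicotianamine synthesis, rose 2.00-fold in Nipponbare (adjusted p = 0.00821) and 2.17-fold in Pokkali (adjusted p = 0.00593), the first of which was lost without Nipponbare 8 h replicate 2 (0.0612). PEZ1 (LOC_Os03g37490), an exporter of phenolics, rose 4.37-fold in Nipponbare (adjusted p = 0.0434) and 4.23-fold in Pokkali (adjusted p = 0.0452). The PEZ1 calls were lost in 8 of 17 alternatives in each line, among them without either 8 h array of either line (0.0759 to 0.176 in Nipponbare, 0.0764 to 0.156 in Pokkali), without either Nipponbare 0 h array for Nipponbare (0.0527 and 0.182) and without Pokkali 0 h replicate 2 for Pokkali (0.108).

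Of the 9 regulators, 0 passed in Nipponbare, against 26.3% of all loci in either direction. This did not hold under every alternative. PRI2 stayed without a call in Nipponbare in 12 of 17, IDEF1 in 13, IRO3 in 14 and BHLH156 in 16. Where they passed, PRI2 and IRO3 were lower and IDEF1 and BHLH156 higher. The other regulators stayed without a call in Nipponbare in all 17. In Pokkali 2 of 9 passed, IRO3 and HRZ1, both lower, against 27.2% of all loci in either direction. IRO3 (LOC_Os03g26210), a repressor related to IRO2, fell 2.96-fold in Pokkali (adjusted p = 0.0160 by limma) and was at a log2 change of -0.85 in Nipponbare (adjusted p = 0.0989). HRZ1 (LOC_Os01g49470), a ubiquitin ligase that restrains the iron deficiency response, fell 1.56-fold in Pokkali (adjusted p = 0.0166) and was at -0.24 in Nipponbare. The IRO3 call was lost without either Pokkali 8 h array (0.0746 and 0.0745), and the HRZ1 call without any one Pokkali array (0.0513 to 0.0755). The remaining falls in Pokkali, named after their values were seen, were NAS3, NRAMP1, FRDL1 and ENA2, at log2 changes of -1.62, -2.51, -1.29 and -0.65 (adjusted p from 0.0315 to 0.0453). Each of these 4 calls was lost when replicate 2 of Pokkali was left out at 0 h or at 8 h, at an adjusted p of up to 0.176. NRAMP1 was also lost without 0 h replicate 1 of Pokkali (0.102), the other 3 without 8 h replicate 1 of Pokkali or either Nipponbare 8 h array, and ENA2 without either Nipponbare 0 h array.

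The difference of changes passed for 0 of the 32 other loci by limma, with 3 at an unadjusted p under 0.05. These were HRZ2 at -0.53, VIT1 at 0.64 and the metal transporter NRAMP1 at -2.23 (adjusted p = 0.450, 0.461 and 0.476). NRAMP1 (LOC_Os07g15460) measured 119 and 326 units at 0 h and 104 and 187 at 8 h in Nipponbare. In Pokkali it measured 805 and 632 at 0 h and 180 and 70.7 at 8 h. It was thus higher before salt in Pokkali, though at 0 h the lines did not pass (log2 2.08, adjusted p = 0.0811). Between lines 5 of the 32 passed at 0 h (15.6%, against 16.8% of all loci) and 3 at 8 h (9.38%, against 22.0%), named here after their values were seen: YSL16 was lower in Pokkali at both times, SAMS2 and IDI2 were higher at both times, and FRO2 and HRZ1 were higher at 0 h. Whether the probes of these loci match both lines alike was not tested.

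Root and shoot transcripts both moved over the same 8 h. The arrays held markers of both organs, as the label of whole seedling asks: on every array 6 of 7 root markers and all 8 green shoot markers were well above background, NRT2.1 being at background in Nipponbare and NRT2.2 in Pokkali. Of the 7 root markers 4 were called lower in Nipponbare (57.1%, against 12.3% of all loci) and 4 in Pokkali (57.1%, against 12.0%), 1 of them (NRT2.2 in Pokkali) at background at both times. RCC3, with the largest change among them, was at a log2 change of -4.68 in Nipponbare and -3.35 in Pokkali, whereas the silicon exporter LSI2 was at -0.12 and -0.06 and did not pass. HKT2;1, a sodium transporter, was at 0.80 and 1.11 and did not pass either. The summed level of the 7 root markers, relative to the 75th percentile, ran from 12.0 to 23.5 in Nipponbare at 0 h and 1.74 to 2.04 at 8 h, and from 12.1 to 16.8 and 2.38 to 2.64 in Pokkali. Of the 8 shoot markers 8 fell in Nipponbare and 7 in Pokkali, and their summed level went from 887 to 981 down to 363 to 457, and from 888 to 1034 down to 337 to 422. A sum follows its brightest locus, at 0 h RCC3 for root and LOC_Os01g41710 for shoot. The median log2 change of the root markers was -1.32 in Nipponbare and -1.41 in Pokkali. That of the shoot markers was -2.68 and -1.92, so medians and sums order the organs differently. The part of either organ in the fall of the 8 iron loci was not tested.

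**Figure D5:**
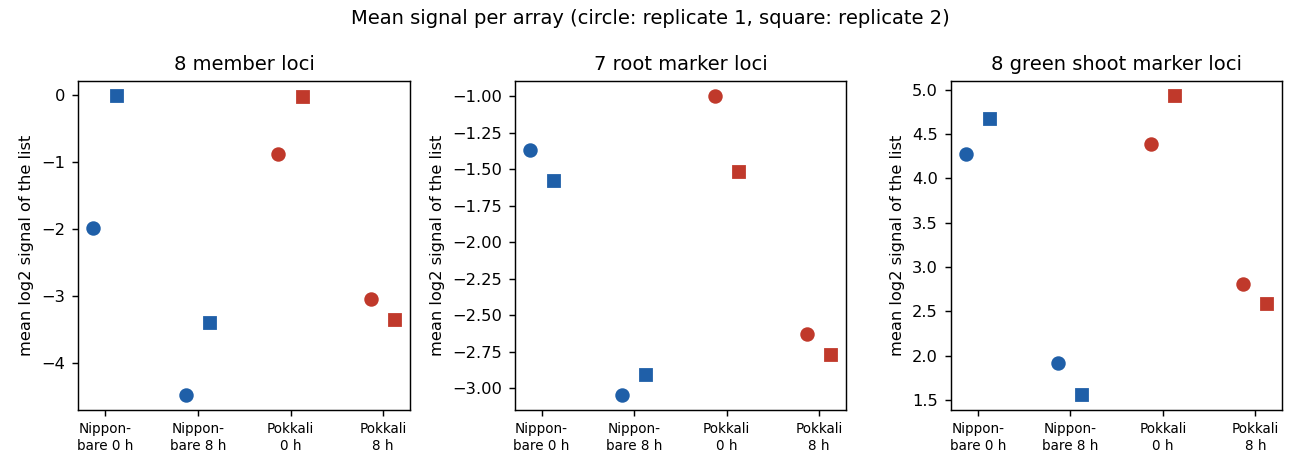
Mean log2 signal, relative to the 75th percentile of the array, of the 8 iron loci (left), 7 root marker loci (middle) and 8 green shoot marker loci (right) on each array; each panel has its own vertical scale, and circles are replicate 1 and squares replicate 2. All 3 panels are lower at 8 h in both lines, and at 0 h the iron and shoot means are higher in replicate 2 while the root mean is lower. The iron means at 8 h include TOM1, YSL15 and IRT1, which were not above background there, so they give no true level. The root means include NRT2.1 in Nipponbare and NRT2.2 in Pokkali, both at background.

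At 0 h the mean of the iron loci was higher in replicate 2 of both lines, and that of the root markers lower. From replicate 1 to replicate 2 of Nipponbare at 0 h the mean of the 8 iron loci differed by 1.97 log2 units, and that of the root markers by -0.21. In Pokkali at 0 h the iron loci differed by 0.85 and the root markers by -0.52. The summed level of the root markers was higher in replicate 2 in both lines, so the mean and the sum of that list differed in direction. RCC3 and CASP1 were higher in replicate 2 of both lines, and LSI2 and HKT2;1 lower. NRT2.1 in Pokkali went from 1023 units in replicate 1 to 126 in replicate 2, and NRT2.2 in Nipponbare from 595 to 279. LSI1 was slightly lower in replicate 2 of Nipponbare and nearly level in Pokkali. The root mean also holds NRT2.1 in Nipponbare and NRT2.2 in Pokkali, both at background. The mean of the shoot markers differed by 0.40 in Nipponbare and 0.54 in Pokkali. Whether the replicates differed in their share of either organ was not tested.

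Finally, loci of like pattern were sought by the root mean square distance from the mean profile of the 5 iron loci that were above background on at least 6 arrays. These were NAS1, NAS2, NAAT1, IRO2 and IRT2, so the profile holds IRT2 and leaves out TOM1, YSL15 and IRT1. LOC_Os11g39010, at a distance of 0.321 log2 units over the 8 arrays, and LOC_Os03g43400, at 0.333, lay nearest among loci outside the lists. Their log2 changes were -2.20 and -2.01 in Nipponbare and -2.05 and -2.34 in Pokkali. The files pair neither with a gene name.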

How the data were processed

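Whole-seedling RNA was labelled with Cy3 and hybridised to Agilent arrays of rice probes, 1 sample per array, per the labels and file headers. The authors scanned it with Feature Extraction 10.7.1.1. Per the file headers the deposited processed signal intensity is background-subtracted and detrended within each array, with no log and no scaling between arrays, and probes were designed on IRGSP5. The deposited series table repeats these intensities for every array. The deposited flag columns hold 0 or 1, a kind other than a measurement. Slide and scan were the same for all arrays, so neither could be a block. Between 81.0% and 85.5% of 61657 non-control spots were well above background. The number of arrays limits the precision. One 8 h Nipponbare sample is replicate 2 by title and 1 by description; the title was used.

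Control and outlier spots were left out, log2 intensity was scaled to the 75th percentile of each array, and spots of a probe and kept probes of a locus were averaged. Of 55078 probes, 47559 were kept, those well above background in each replicate of 1 group or more (repeated probes: share of spots above 0.5). The groups were fitted together in R 4.3.3 with limma 3.58.1 on all loci (4 residual and 2.36 prior degrees of freedom). The code of the fit was run on simulated data with independent noise and changes planted in the Nipponbare 8 h group. Those settings differ from the real arrays, so that run does not bear on the calls given here. Alternatives were normexp (offset 50, on the median signal, since the planned mean signal column was absent), quantile or no scaling, no filter, the brightest probe, a replicate block, arrays left out and only the groups compared. The 8 loci and the lists were chosen with earlier results of these data known. Of the other iron loci, the 6 with the smallest p in each salt comparison and in the difference of changes are named. RefSeq (assembly ASM3414082v1) held 0 of the locus identifiers. It names a gene so on the chromosome in the identifier for 6 of the 8 and 14 of the 33 others, so names rest on general knowledge.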

Additional observations from a re-analysis of the deposited data

How the results depend on the processing

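The count of fallen iron uptake and nicotianamine loci, 5 of 8 in each line, was 1 in Nipponbare and 2 in Pokkali with normexp background correction, whose offset narrows differences among dim loci by construction. It was 3 in Nipponbare with only the groups compared, and 2 in Nipponbare and 3 in Pokkali without replicate 2 of both lines at 0 h. With 1 array left out it ran from 0 to 6 in Nipponbare and from 1 to 5 in Pokkali. Between lines at 8 h the count of 0 became 1 without replicate 1 or replicate 2 of both lines at 0 h and with only the groups compared (1 each; TOM1, at background in both lines, adjusted p = 0.0108). For the 8 loci no result turned past the test in the opposite direction. Among the other iron loci, YSL2 in Nipponbare was not called, at a log2 change of -0.07. Its change ran from -1.93 without 0 h replicate 1 to 1.78 without 0 h replicate 2 of that line. For the other iron loci, the count of 6 in Nipponbare ran from 2 to 10 with 1 array left out and was 15 without replicate 1 of both lines at 0 h. The count of 12 in Pokkali ran from 2 to 13 and was 7 without replicate 2 of both lines at 0 h. Between lines the 5 at 0 h became 3 with no scaling, 3 with no filter, 2 and 3 without replicate 1 or 2 of both lines at 0 h, 1 with only the groups compared and 2 to 4 with 1 array left out. The 3 at 8 h became 5 without replicate 1 or 2 of both lines at 0 h and 5 with only the groups compared, and 0 to 4 with 1 array left out. With no scaling the median change of all loci in Nipponbare moved from 0.05 to -0.17, and that between lines at 0 h from 0.08 to -0.14. The samples share only a replicate number, with no shared batch in the labels. Deviations from the group means of same-numbered replicates correlated at 0.54 between lines at 0 h, 0.22 between lines at 8 h, and 0.11 and 0.08 between times in Nipponbare and Pokkali. With the number as a replicate block, 5 of 8 loci fell in each line, NAS1 passed as higher in Pokkali at 8 h (1 of 8, adjusted p = 0.0186), and the other iron loci gave 9, 14, 5 and 4 calls, with FRO1 lower in Pokkali (adjusted p = 0.00275). Signals under about 15.3 units were not well above background on at least 1 array, which limits TOM1, YSL15 and IRT1 at 8 h to bounds.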
